A study of Mus musculus with 17 samples.

Results

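The 97 transcripts described here carried the most ribosome footprints in wild-type mouse testis. They are the rows with at least 1000 CPM (counts divided by the library total and multiplied by 1000000) in both wild-type footprint libraries. The tables list 37991 transcripts, of which 18286 have a coding size and 13483 had a footprint count in wild type. The members were chosen by their wild-type footprint levels, so those levels, and every comparison that has them on either side, are given as a description with no test.

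Ribosome profiling sequences the short stretches of mRNA that translating ribosomes shield from nuclease, so footprint counts follow how often a coding sequence is occupied. The ratio of footprints to mRNA, often called translational efficiency, sets that occupancy against the amount of message. Spermatogenic cells are known for storing many mRNAs in an untranslated state and translating them later, because transcription stops when spermatid chromatin is compacted. MAEL (Maelstrom) is a germ cell protein of the pathway of piRNAs, the small RNAs that guide PIWI proteins against transposons.

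The study compared testes of 129SvJae mice that were wild type or Mael-/-, with 2 libraries (a and b) per genotype for each of 3 assays: mRNA, ribosome footprints (26 to 34 nt) and small RNA (15 to 50 nt). From wild-type testis, RNA was also precipitated with anti-MAEL, as 2 long RNA libraries and 1 library each of 50 to 150 nt and 15 to 50 nt, and with IgG as 1 long RNA library. No treatment is named, the age of the animals is not stated, and no label says that a and b are separate animals. The p-values therefore cover only the variation from library to library, which may be technical.

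Library totals were 1668197 to 5009051 counts for footprints, 4130509 to 15372210 for mRNA and 4831638 to 44416966 for small RNA. The anti-MAEL long RNA libraries held 5747210 and 10863053 counts, IgG 7785650, and the size-selected precipitates 68922710 (50 to 150 nt) and 172728187 (15 to 50 nt). The files pair no gene symbols with the transcript IDs, and 0 of the 97 matched the reference tables. The functions of the members, the levels of cell type markers and of Mael itself, and the sequences were therefore not analysed here. The mRNA and long RNA kit does not mark strand, so a transcript and an overlapping antisense one cannot be told apart.

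The 97 transcripts took 32.8% ± 0.0165 (SD, n = 2) of all wild-type footprint counts and 16.5% ± 0.997 of wild-type mRNA counts. They were mostly short. Each table gives a coding size, whose unit is not stated; its ratio to the transcript length in nt was at most 0.332 and its lowest value was -13, as for codons with a fixed number taken off. The median coding size was 117 for the members and 357 for the coding transcripts with a wild-type footprint count. Sizes under 126 (1.5 times the smallest member's) made up 58 of the 97 members (59.8%) and 12.4% of those coding transcripts. That limit was chosen after the sizes were seen.

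Many members had exactly the same size. Size 84 held 11 members of the 40 rows of that size in the tables, size 107 held 12 of 41, size 111 held 14 of 54 and size 117 held 10 of 52. These 4 shared sizes, grouped after the values were seen, hold 47 members. The other 50 are 11 short transcripts under size 126 and 39 longer ones, of size 145 to 4712. Some rows are near copies: 26 members shared a size and counts within 5% in every wild-type footprint and mRNA library with at least 1 other member. The sources used here do not say how reads matching several transcripts were assigned, so the counts of such rows are uncertain and they are not independent of each other.

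Within wild-type footprints, the transcript ENSMUST00000052776 (coding size 108) stood first with 12181 CPM in library a and 11277 in b. The next were ENSMUST00000087445 and ENSMUST00000088246, both of size 431, with 9854 and 10559 CPM and with 9252 and 9894 CPM in a and b. The other 9 of the 12 highest had sizes of 107 to 119. They were ENSMUST00000091749, ENSMUST00000110468, ENSMUST00000110473, ENSMUST00000018246, ENSMUST00000091756, ENSMUST00000110476, ENSMUST00000110455, ENSMUST00000110452 and ENSMUST00000099703, with means from 7705 to 9318 CPM. Of these, ENSMUST00000091749 and ENSMUST00000110468 had nearly the same counts, at 9539 and 9538 CPM in a.

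Per 100 units of coding size the order changed. ENSMUST00000052776 still stood first at 10860 CPM per 100 units, followed by ENSMUST00000018246 and ENSMUST00000091756 of size 107, both at 8271. The median per 100 units was 7176 at size 107, 5162 at size 84, 2523 at size 111 and 1215 at size 117. It was 2746 for the other short members and 333 for the longer ones, whose highest member, ENSMUST00000087445, reached 2368. The lowest of the 97 on this scale was ENSMUST00000018449 (size 2316) at 46.9 CPM per 100 units.

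**Figure D1:**
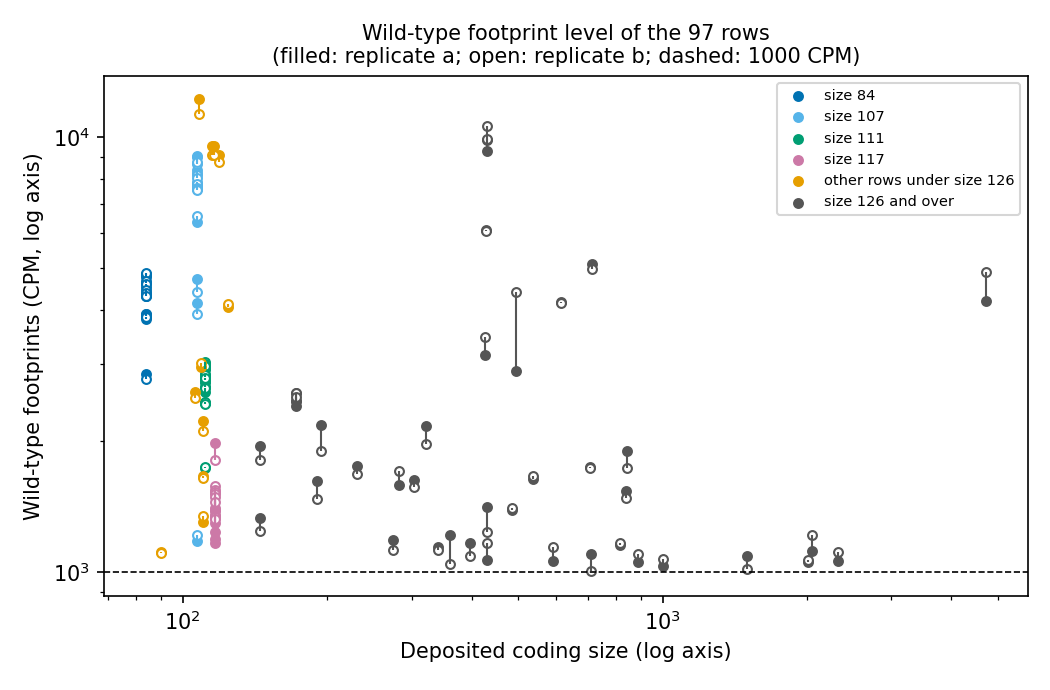
Wild-type footprint level (CPM, log axis) of the 97 transcripts against deposited coding size (log axis), with replicate a filled, replicate b open, a line joining them, and the 1000 CPM threshold dashed. The columns of points at sizes 84, 107, 111 and 117 hold 47 transcripts, and the longest member, at size 4712, lies at 4199 and 4890 CPM.

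The threshold fell in a continuous range of values. The 5 members nearest to it, by the lower of both libraries, were ENSMUST00000007212 (1053 CPM), ENSMUST00000111964 (1046), ENSMUST00000036493 (1032), ENSMUST00000112198 (1017) and ENSMUST00000099166 (1007). Just outside lay ENSMUST00000034371 (985), ENSMUST00000032078 (970), ENSMUST00000020637 (967), ENSMUST00000097354 (967) and ENSMUST00000040914 (961).

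The first question was how much mRNA stood behind these footprints. In wild type, 110 transcripts reached 1000 CPM in both mRNA libraries and 60 of them were members, which is 54.5% of the abundant mRNAs and 61.9% of the members. The members' mRNA levels ran from 42.9 to 8539 CPM in library a, with a median of 1356, and from 53.5 to 7914 CPM in b, with a median of 1673. Across members, log2 footprint and mRNA CPM had a Pearson correlation of 0.60, over 97 transcripts that share libraries and in part reads.

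Most members had more footprints than their mRNA share. The fitted log2 difference of footprints and mRNA in wild type, scaled by TMM (trimmed mean of M values), had a median of 1.24 over members against -0.05 over the 11427 transcripts fitted, and was above 0 for 84 of the 97. This follows in part from the choice of members by footprints. As a log2 ratio of CPM, the median was 2.0 at size 107, 1.54 at size 84, 1.42 at size 117 and 0.67 at size 111, and all 47 members of these sizes were above 0. The longer members had a median of 0.46 and ranged from -1.85 to 4.31.

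The highest ratio belonged to ENSMUST00000074556 (size 110), which had 1300 and 1346 CPM of footprints in libraries a and b but 42.9 and 53.5 CPM of mRNA, a log2 ratio of 4.77 ± 0.19 (SD, n = 2). ENSMUST00000111964 followed at 4.31 ± 0.63, ENSMUST00000053611 at 4.05 ± 0.30 and ENSMUST00000114459 at 3.99 ± 0.02. Their mRNA lay far below the members' median, at 44.6 to 134.3 CPM. ENSMUST00000022616 at 2.60 ± 0.30 and ENSMUST00000078267 at 2.54 ± 0.06 completed the highest 6.

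The lowest ratio belonged to ENSMUST00000047864 (size 839), with 1538 and 1477 CPM of footprints on 5722 and 5136 CPM of mRNA, a log2 ratio of -1.85 ± 0.07. ENSMUST00000043815 (size 2048) had -1.60 ± 0.01 and ENSMUST00000007212 -1.05 ± 0.23. ENSMUST00000005705 at -1.01 ± 0.15, ENSMUST00000027421 at -0.76 ± 0.39 and ENSMUST00000035963 at -0.58 ± 0.16 completed the lowest 6. All 6 are longer members, of size 815 to 4712, and entered the list with more mRNA than footprints.

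The same ratio in Mael-/- testis was tested, since both of its sides are libraries that the rule did not use. The wild-type libraries, footprints included, were in the same fit and entered its scaling and its estimate of spread, so the p-values are not fully separate from the rule. Of the 97 members, 57 had more footprints than mRNA and 5 had fewer (edgeR quasi-likelihood, Benjamini-Hochberg adjusted p under 0.05 over all transcripts), where 15.2% of the 11427 transcripts tested were called higher and 22.5% lower. Because transcripts with many footprints in wild type tend to have many in Mael-/- too, the count describes the members and shows nothing particular to them. The median log2 difference was 0.74, against -0.20 over all transcripts tested. Over members it was 0.75 without wild-type footprint library a and 0.74 without b. The count of lower members was 10 with scaling by library totals (30.4% of all transcripts) or without Mael-/- mRNA library b (25.3%). It was 3 without Mael-/- footprint library a (11.2%) and 2 without b (10.9%).

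By size, all 12 members of size 107, all 11 of size 84 and 9 of 10 of size 117 were called higher, and 3 of 14 of size 111. The count at size 111 was 13 with size factors (17.5% of all transcripts were then called higher), 12 with DESeq2 (15.8%) and 13 without Mael-/- mRNA library a (15.0%), so the lower count at this size was not stable. At size 117 the count fell without Mael-/- footprint library a or b, as did the count of all transcripts called higher. Of the other short members 10 of 11 were higher, and of the longer members 12 were higher and 5 lower. ENSMUST00000074556 again stood first, with 1696 and 1774 CPM of footprints on 75.9 and 86.4 CPM of mRNA in Mael-/- libraries a and b. Its fitted log2 difference was 4.65 ± 0.21 (SE; adjusted p by edgeR quasi-likelihood = 2.77e-05). At the other end, ENSMUST00000043815 had 442 and 350 CPM of footprints on 1654 and 1523 CPM of mRNA.

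**Figure D2:**
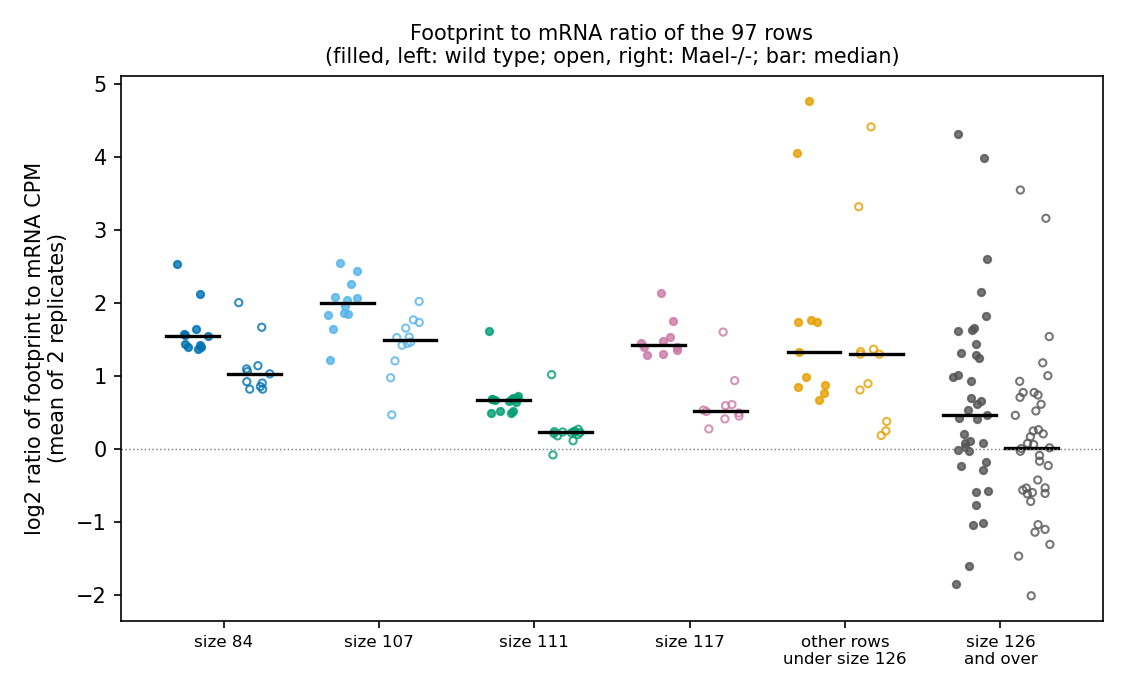
Log2 ratio of footprint to mRNA CPM (mean of 2 replicates) of each member by size class, filled at left for wild type and open at right for Mael-/-, with bars at the medians. The median lies at 2.0 in wild type and 1.49 in Mael-/- for size 107, at 0.67 and 0.23 for size 111, and at 0.46 and 0.02 for the longer members.

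The next question was how the mRNA of these transcripts differed without MAEL. Members of the shared sizes tended to make up more of the mRNA in Mael-/- and the longer members split in both directions. As a whole, the members took 16.5% ± 0.997 of mRNA counts in wild type and 20.5% ± 0.399 in Mael-/- (SD, n = 2). In a bulk tissue, fewer cells of a type and less RNA per cell cannot be told apart.

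Of the 97 members, 16 were higher and 16 lower in Mael-/- (edgeR quasi-likelihood, adjusted p under 0.05), where 15.2% of the 11181 transcripts tested were called higher and 17.7% lower. Over all members the counts are thus near the background. The median log2 fold change was 0.36, against 0.21 over all transcripts tested. The count of higher members moved with the setting, as did the share of all transcripts called higher. It was 35 with scaling by library totals (29.3% of all transcripts), 2 with size factors (6.35%) and 31 with a replicate block (24.6%). Without wild-type mRNA library a, or without b, no transcript of the whole table passed the test, so all calls rest on having both.

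The shared sizes held 10 of the 16 higher members and no lower one (edgeR quasi-likelihood), where 15.2% of all transcripts were called higher and 17.7% lower. Of these 10, 9 were at size 117 and 1 at size 107. At an unadjusted p under 0.05 by the same test, 21 members of the shared sizes were higher and 0 lower. Of the 47 members of these sizes, DESeq2 called 9 higher (7.74% of all transcripts) and library totals 25 (29.3%). The replicate block called 23 higher (24.6%) and size factors 0 (6.35%), and each setting called 0 lower. Their median log2 fold change was 0.50 and 44 of 47 were above 0. At size 117, 9 of 10 members were higher, although these 10 rows form 7 sets of near-identical counts, and 0 of 10 with size factors. Their median mRNA level was 489 and 532 CPM in wild-type libraries a and b and 1202 and 1159 CPM in Mael-/-, and the groups of medians did not overlap. At size 84 the median was 1341 and 1665 CPM in wild type and 2579 and 3244 CPM in Mael-/-, and the log2 fold changes had a median of 0.68. The smallest adjusted p at that size was 0.0619 by edgeR quasi-likelihood, above the threshold.

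Size 107 had 1 higher member and a median log2 fold change of 0.44, and its median level was 1666 and 2147 CPM in wild type and 2708 and 3214 CPM in Mael-/-. Size 111 had a median log2 fold change of 0.36 with a smallest adjusted p of 0.124 (edgeR quasi-likelihood). Median log2 fold changes of the shared sizes stayed above 0 with each scaling, at 0.78 with library totals and 0.34 with size factors. Those scalings put the median of all transcripts at 0.49 and 0.05. A scaling moves all transcripts by nearly the same amount, so the shift relative to the bulk cannot differ much between them.

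Among the 39 longer members, 6 were higher and 15 lower, around a median log2 fold change of -0.56. Of all transcripts tested, 15.2% were called higher and 17.7% lower, so the count of higher longer members is near the background. With size factors 2 were higher and 13 lower, where 710 of all 11181 transcripts tested were called higher and 1877 lower. ENSMUST00000035963, the longest member (size 4712), fell most. Its mRNA was 5788 and 7914 CPM in wild-type libraries a and b and 1842 and 2213 CPM in Mael-/-, so both Mael-/- values lay below both wild-type values. The log2 fold change was -2.04 ± 0.27 (SE; adjusted p by edgeR quasi-likelihood = 0.0330), a level 3.38-fold lower as a ratio of mean CPM.

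ENSMUST00000097399 (size 172) fell by 1.92 ± 0.37 on the log2 scale (SE; adjusted p by edgeR quasi-likelihood = 0.0330). It had 2266 and 2518 CPM in wild type and 1035 and 503 CPM in Mael-/-, and its reads are uncertain because 2 other members of that size have near-identical counts. The Mael-/- values were both lower but differed from each other by more than the wild-type values did.

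ENSMUST00000022616 (size 429) rose most, from 1169 and 867 CPM in wild type to 3281 and 3307 CPM in Mael-/-. The groups lay far apart, with a log2 fold change of 1.41 ± 0.25 (SE; adjusted p by edgeR quasi-likelihood = 0.0330) and a level 3.24-fold higher as a ratio of mean CPM. ENSMUST00000108858 (size 282) rose from 553 and 394 CPM to 1471 and 1078 CPM, with no overlap between groups. Its log2 fold change was 1.15 ± 0.29 (SE; adjusted p by edgeR quasi-likelihood = 0.0355), and 0.0661 with size factors.

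**Figure D3:**
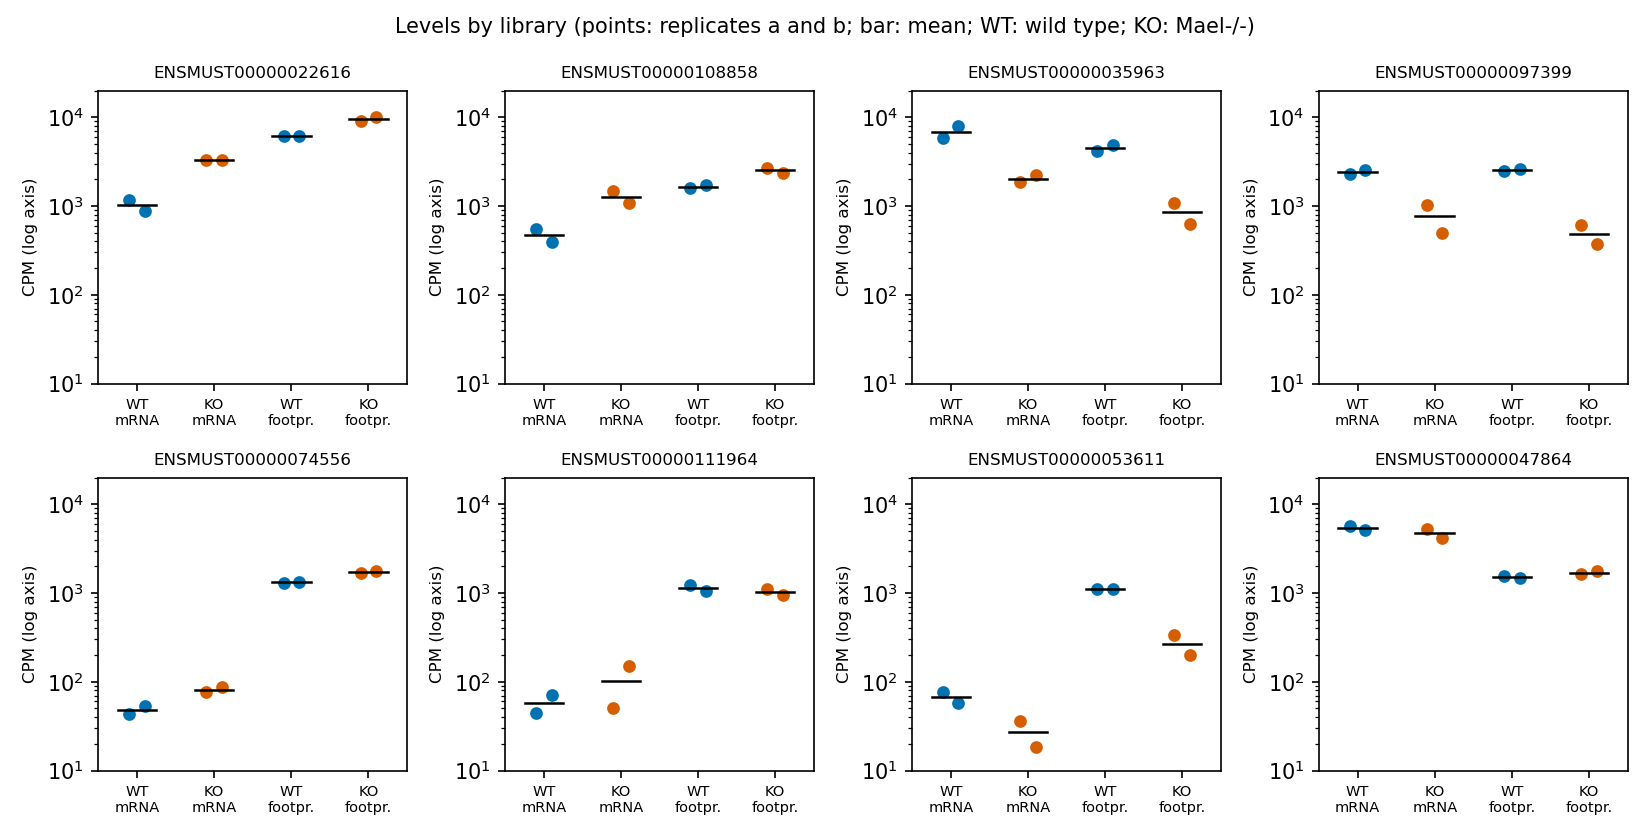
CPM (log axis) of 8 named transcripts in each mRNA and footprint library, with points for replicates a and b and bars at the mean, for wild type (WT) and Mael-/- (KO). In the upper row ENSMUST00000022616 and ENSMUST00000108858 are higher in both assays in Mael-/- and ENSMUST00000035963 and ENSMUST00000097399 are lower, and in the lower row the first 3 transcripts have mRNA far below their footprints.

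Footprint levels in Mael-/- are set beside wild type as a description, because wild-type footprints chose the members. In Mael-/- the members took 34.0% ± 0.736 of footprint counts. The list of most translated transcripts was largely shared: 94 transcripts reached 1000 CPM in both Mael-/- footprint libraries and 75 of them were members, which is 79.8% of that list and 77.3% of the members. All 47 members of the shared sizes and 10 of 11 other short members were in it, but 18 of 39 longer ones. Longer members also lay nearer to the threshold. Their median wild-type footprints were 1619 and 1568 CPM in libraries a and b, against 2945 and 2975 CPM for the shared sizes. How much of the difference follows from this was not tested. The share of footprint counts at longer members was 9.28% ± 0.195 in wild type and 6.49% ± 0.444 in Mael-/-, and at size 84 it was 4.63% ± 0.0180 and 6.33% ± 0.772.

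The median log2 footprint fold change was 0.08 over members and 0.06 over all transcripts fitted. The value over members was close to 0: it was 0.0010 without Mael-/- footprint library b and -0.17 over the wider list of transcripts at 500 CPM or more. The median was 0.14 for the shared sizes, with 40 of 47 above 0, and -0.79 for the longer members, with 29 of 39 below 0. Of the 12 transcripts with the highest wild-type footprints, the pair of size 431 had means of 2721 ± 691 and 2782 ± 617 CPM in Mael-/-, and the other 10 lay between 8728 and 10712 CPM. ENSMUST00000035963 had 4199 and 4890 CPM of footprints in wild type and 1073 and 619 CPM in Mael-/-, a log2 value of -2.53. ENSMUST00000022616 had 6093 and 6088 CPM in wild type and 9159 and 10014 CPM in Mael-/-, a log2 value of 0.55.

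Changes in footprints and mRNA went together across members, with the same sign in 87 of 97 and a Pearson correlation of 0.94 of the log2 fold changes, a description over transcripts that share libraries. The correlation was 0.94 over the 39 longer members and 0.65 over the 47 of the shared sizes. The change of the ratio in Mael-/-, which also holds the wild-type footprints, had a median log2 value of -0.24 over members and -0.19 over all transcripts fitted. It was below 0 for 46 of 47 members of the shared sizes and for 7100 of all 11427 transcripts fitted. The median of the shared sizes was -0.24, close to that of all transcripts. The lowest class median was -0.64, at size 117, where mRNA levels were higher in Mael-/- and footprints had a median log2 value of 0.21.

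**Figure D4:**
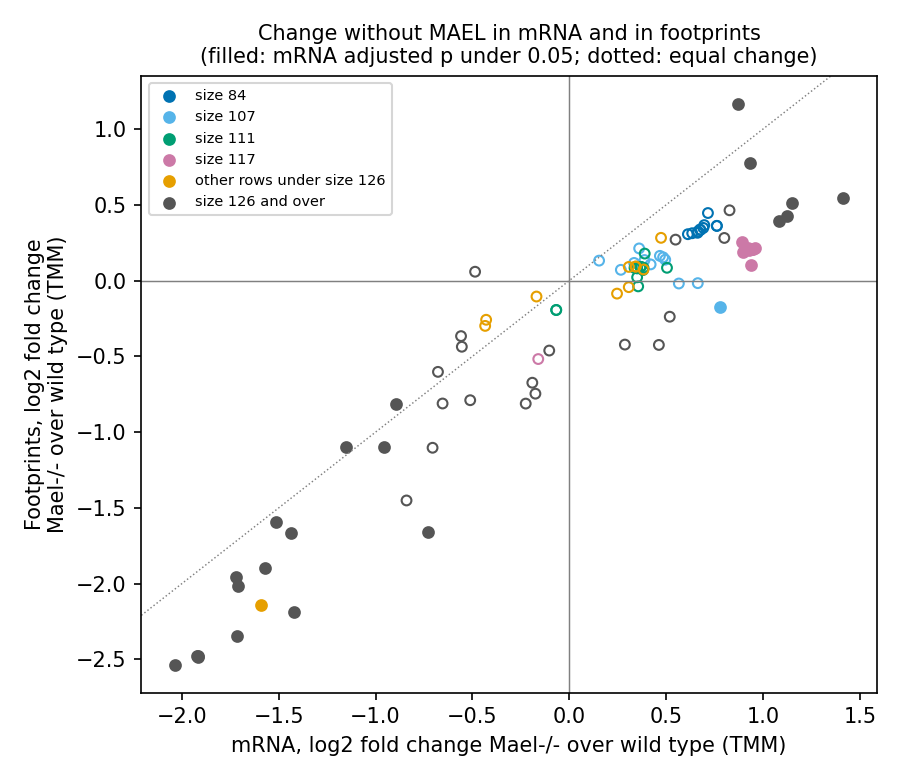
Log2 fold change of footprints against that of mRNA, Mael-/- over wild type, both scaled by TMM, for the 97 members coloured by size class and filled where the mRNA passed the test, with a dotted line of equal change. The longer members run from -2.04 to 1.41 on the mRNA axis, and members of the shared sizes lie close to 0 on the footprint axis, with a median of 0.14.

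In the anti-MAEL precipitate the members were scarce and close to the IgG background. They took 1.41% ± 0.461 (SD, n = 2) of anti-MAEL long RNA counts and 1.84% of IgG counts (exact binomial interval at 95% confidence 1.83 to 1.85%, counting error only), or 2.49% ± 0.534 and 2.97% of the counts at coding transcripts. Per library the share was 1.09% in anti-MAEL a and 1.74% in b, both below IgG. These tables count whole transcripts, so their levels are not set against those of the mRNA tables.

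None of the 97 members was called higher or lower with anti-MAEL over IgG (edgeR quasi-likelihood on 5 libraries, adjusted p under 0.05; 2 higher and 3 lower at an unadjusted p under 0.05), where 0.869% of the 12431 transcripts tested were called higher and 0.0% lower. DESeq2 called 0 higher and 1 lower. The median log2 difference was 0.05 over members and 0.01 over all transcripts tested. Shared sizes had a median of 0.18 and longer members a median of -0.26. With library totals, in this fit the counts at coding transcripts only, the median of the shared sizes was -0.04. With 1 IgG library, that library is assumed to vary like the others. The 5 libraries include the 2 wild-type mRNA libraries, which entered the scaling and the estimate of spread although their tables count differently. In a fit of the 3 immunoprecipitates alone the median over members was 0.02.

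The largest positive differences were at ENSMUST00000086056 and ENSMUST00000078267. ENSMUST00000086056 had 113 and 152 CPM in anti-MAEL libraries a and b and 109 CPM with IgG, a log2 difference of 0.65 ± 0.26 (SE; adjusted p by edgeR quasi-likelihood = 0.712). ENSMUST00000078267 had 31.3 and 47.6 CPM against 32.0 CPM, a log2 difference of 0.64 ± 0.28. The anti-MAEL values of the second transcript lay on both sides of IgG.

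The lowest differences were at ENSMUST00000022616 and ENSMUST00000027421. ENSMUST00000022616, the member whose mRNA rose most in Mael-/-, had 4.52 and 10.3 CPM in anti-MAEL libraries a and b and 25.05 CPM with IgG, a log2 difference of -1.43 ± 0.33 (SE; adjusted p by edgeR quasi-likelihood = 0.113). DESeq2 called it lower (adjusted p = 0.0302), and over all settings its adjusted p ran from 0.00103 with no filter on low counts to 0.633 without anti-MAEL library a. ENSMUST00000027421 had 220 and 423 CPM against 635 CPM, a log2 difference of -0.67 ± 0.28. For both transcripts the anti-MAEL values lay below IgG.

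The size-selected anti-MAEL libraries have 1 library each and were not tested. Members took 0.103% of counts at 50 to 150 nt (exact binomial interval 0.102 to 0.104%) and 0.0702% at 15 to 50 nt (0.0698 to 0.0706%). The median level was 7.82 CPM at 50 to 150 nt and 1.85 CPM at 15 to 50 nt. At 15 to 50 nt the members of size 107 had the highest median of the classes, 15.1 CPM, and the longer members had a median of 0.61 CPM. Size-selected IgG was not analysed here, so the background of these levels is not known.

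In small RNA the members were also scarce, at 0.137% ± 0.00177 of counts in wild type and 0.540% ± 0.140 in Mael-/- (SD, n = 2). Both Mael-/- libraries, at 0.441% and 0.639%, lay above both wild-type ones. Of counts at coding transcripts the members took 2.55% ± 0.0191 in wild type and 4.67% ± 0.330 in Mael-/-, a smaller relative difference. By TMM the median log2 fold change was 0.37 over the 95 members tested and 0.15 over all 9906 features. With library totals these medians were 1.69 and 1.41. The classes differed, with TMM medians of 1.36 at size 84 and 1.00 at size 117. They were 0.19 at size 107, 0.37 at size 111, 0.18 for other short members and -0.04 for longer ones. Members of size 84 took 0.0405% of counts in wild type and 0.249% in Mael-/-.

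Of the 95 members tested, 1 was higher and 2 were lower (edgeR quasi-likelihood, adjusted p under 0.05), where 3.75% of features were called higher and 3.39% lower. DESeq2 called 5 higher and 4 lower (4.26% and 6.17% of all features). Library totals gave 45 higher and 0 lower (24.7% and 1.4%), and the replicate block 32 higher and 13 lower (23.4% and 17.7%). Without Mael-/- library b there were 23 higher and 10 lower (10.3% and 5.62%), and without Mael-/- library a 5 and 4 (3.87% and 10.4%). Without wild-type library a no member was called in either direction (0.258% and 0.487%). Members of the shared sizes had a median log2 fold change of 0.78 with 45 of 47 above 0, and none passed the test (17 higher at an unadjusted p under 0.05; DESeq2 called 4 higher). At size 84 the median level was 9.91 and 10.8 CPM in wild-type libraries a and b and 53.4 and 69.7 CPM in Mael-/-.

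ENSMUST00000024739 (size 705) rose, from 0.630 and 1.67 CPM in wild type to 7.59 and 28.1 CPM in Mael-/-, with a log2 fold change of 2.75 ± 0.56 (SE; adjusted p by edgeR quasi-likelihood = 0.0212). The groups did not overlap, and the Mael-/- libraries differed from each other by more than the wild-type ones. ENSMUST00000086056 fell, from 11.9 and 14.0 CPM to 4.48 and 8.69 CPM, by 2.27 ± 0.39 on the log2 scale (SE; adjusted p by edgeR quasi-likelihood = 0.0112). With library totals its log2 value was -1.01 and did not pass the test (adjusted p = 0.108). ENSMUST00000052776, first in wild-type footprints, had 19.0 and 17.5 CPM in wild type and 13.3 and 15.7 CPM in Mael-/-. Scaled by TMM its log2 fold change was -1.54 ± 0.41 (SE; adjusted p by edgeR quasi-likelihood = 0.0489), and with library totals it was -0.33 and did not pass the test (adjusted p = 0.376).

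**Figure D5:**
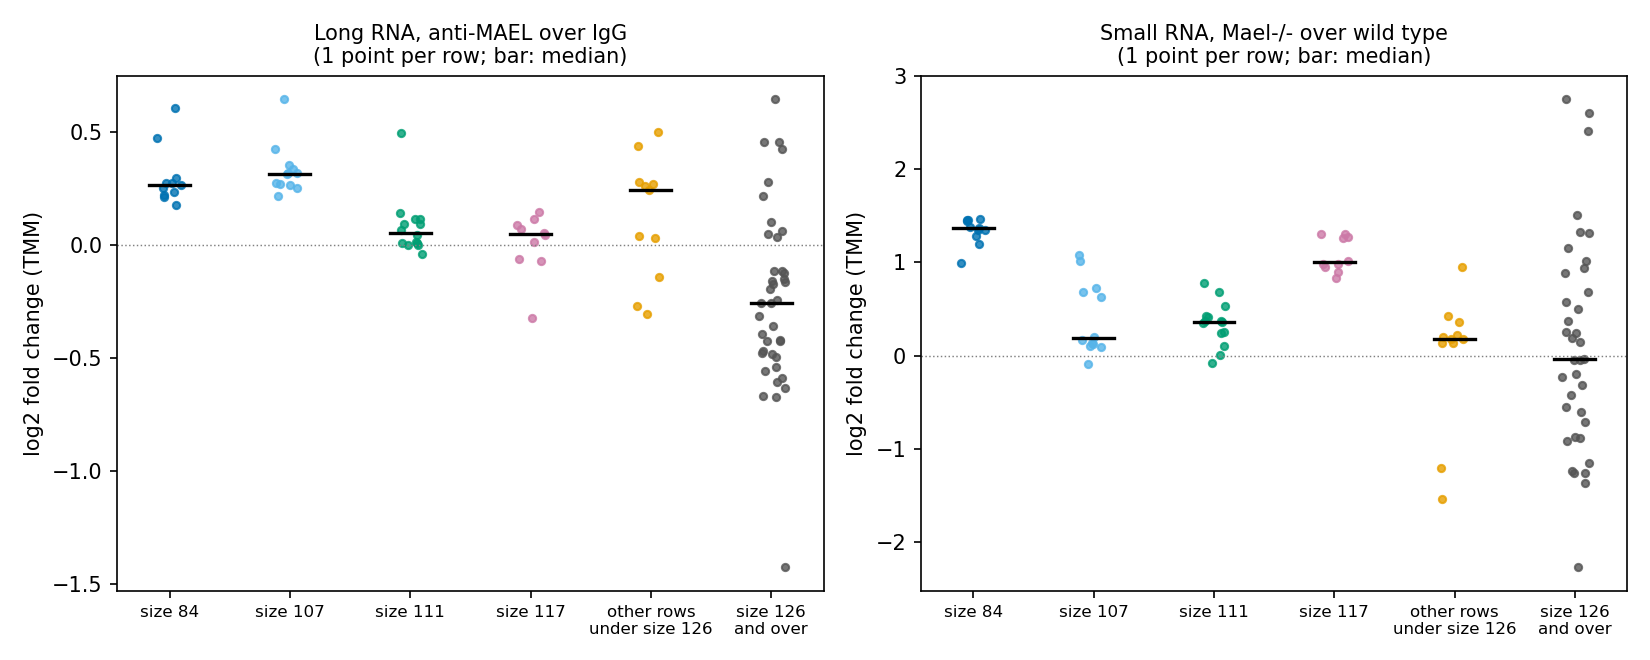
Log2 fold change, scaled by TMM, of long RNA with anti-MAEL over IgG (left) and of small RNA in Mael-/- over wild type (right), 1 point per member by size class with bars at the medians. Points of the shared sizes at left lie near 0 with a median of 0.18 and those of longer members have a median of -0.26, and at right the medians are 1.36 at size 84, 1.00 at size 117 and -0.04 for longer members.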

How the data were processed

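The deposited files hold raw read counts per transcript, with no header. Per the submitters' processing notes, build mm9, TopHat2 2.0.7, Bowtie2 2.0.6 and CASAVA 1.8 were used, in roles that are not stated. The counter, its use of strand and of reads with several matches were not given in the sources used here. In small RNA and precipitate libraries, entries of 1 piRNA locus were replaced by the one with the most counts. CPM, shares and library totals use the counts left after that step. Wild-type small RNA library a, for example, held 80965066 counts before it and 44416966 after. Footprint and mRNA totals were not changed by it.

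Groups came from the titles and characteristics. Tests were fitted over whole tables with edgeR 4.0.16 in R 4.3.3 (quasi-likelihood, TMM, filterByExpr, Benjamini-Hochberg over all transcripts, adjusted p under 0.05). Small RNA and mRNA fits used the 4 libraries of each assay, ratios the 8 footprint and mRNA libraries. The fit of anti-MAEL and IgG also held the 2 wild-type mRNA libraries and covered coding transcripts. DESeq2 1.42.0, other scalings, no filter, identical rows collapsed, a replicate block and left-out libraries were alternatives. The scripts were tested on simulated counts. Joins and figures used pandas 2.3.3, scipy 1.17.1, numpy 2.4.6 and matplotlib 3.10.9 in Python 3.11.15.

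Replicates of a group differed by 3.30 to 51.5 in chi-square per degree of freedom, so none was counted as 1 library. Exact intervals cover counting error only. Members and lists were chosen with earlier results of these data known. Named transcripts are those with the 12 highest wild-type footprint means, the 6 highest and 6 lowest ratios, the 5 on each side of the threshold, and in each comparison at most 2 in each direction. Lists of gene symbols and cell type markers could not be read, since no ID was matched.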

Additional observations from a re-analysis of the deposited data

How the results depend on the processing

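With 2 libraries per group, a value rests on few libraries. For mRNA, library totals gave a median log2 fold change of 0.64 over members and -0.28 over longer members, with 35 members higher, 25 of them of the shared sizes. Size factors gave 2 higher, 0 of the shared sizes and 2 longer. No label says what the letters a and b stand for. Deviations of same-letter libraries correlated at 0.22 in mRNA, -0.13 in footprints and 0.63 in small RNA. In small RNA, libraries of the same letter thus shared variation, which the main fit, with no block, did not account for. The source of that variation was not tested. A replicate block gave 31 members higher in mRNA (23 of the shared sizes) and 32 higher and 13 lower in small RNA, and also called more of all features (24.6% higher in mRNA, 23.4% higher and 17.7% lower in small RNA). Over all transcripts of the footprint comparison, the same-letter block called 764 higher and 1720 lower, and a block with crossed letters, chosen after seeing the data, 1450 and 2210, against 1102 and 1990 with no block. In small RNA, library totals gave a median of 1.69, with 45 members higher and 0 lower. There size factors gave 1 lower, no filter 4 higher and 1 lower, DESeq2 5 and 4, and collapsing identical rows 1 lower. For anti-MAEL over IgG, no filter and DESeq2 each called 1 lower. For the ratio in Mael-/-, library totals gave a median of 0.52 and 10 lower. The median footprint fold change was 0.19 with library totals and turned to -0.17 for members at 500 CPM or more, where the median wild-type ratio was 0.84. The ratio change was -0.50 with library totals. Of counts at coding transcripts, members took 1.07% at 50 to 150 nt and 0.217% at 15 to 50 nt. The causes were not tested.

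Leaving out 1 library at a time gave, in mRNA, 0 to 17 members higher and 0 to 23 lower, 0 to 11 higher among the shared sizes, and 0 to 7 higher and 0 to 21 lower among longer members. In small RNA it gave 0 to 23 higher and 0 to 10 lower, and for anti-MAEL over IgG 0 to 1 lower (1 without either wild-type mRNA library). For the ratio in Mael-/- it gave medians of 0.62 to 0.88 and 2 to 10 lower, and for footprints medians of 0.00102 to 0.0776. Over all alternatives of the main results, 166 values stayed near the main one. For medians this means a move within the spread, even where the sign changed, and for counts a change within a set fold. The median for anti-MAEL over IgG, for example, was 0.05 in the main fit and -0.13 with scaling by the counts at coding transcripts. Another 55 values moved by more, and 1 median moved by more and also changed sign.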
